A study of Mus musculus with 30 samples.

Results

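The GABAergic interneuron genes examined here are 36 genes that mark or specify the inhibitory neurons of the mouse forebrain, among the 24883 rows of an expression table of the dorsal hippocampus. They were chosen by symbol from a fixed list, whatever their measured values, and each of the 36 occupied 1 row. They comprised 3 genes of GABA synthesis and vesicular transport, 10 neuropeptide genes, 2 genes of calcium-binding proteins, 11 transcription factors, 5 secreted, adhesion or synapse-organising genes, and 5 receptors, enzymes and others. RNA was sequenced from 30 wild-type male young adult C57BL/6J mice, 1 library per mouse and 6 mice per condition. VEH-HC mice were vehicle mice that stayed in the home cage and were only handled. VEH-T10 and VEH-T3 mice received the in vivo-jetPEI transfection reagent without DNA and were trained in the object location memory task for 10 min, the threshold period, or 3 min, the subthreshold period. Y397F-T10 mice received a plasmid for the Y397F point mutant of CREST before 10 min of training. Y397D-T3 mice received one for the Y397D point mutant before 3 min. CREST is a subunit of the neuronal BAF chromatin remodelling complex. The labels call the mutants phospho-null and phospho-mimetic. The paper could not detect phosphorylation of Y397 and only speculates that it occurs. Tissue was taken 1 h after training. All mice were single-housed. The plasmids encoded HA-tagged mouse CREST under the miniCaMK2 promoter, which drives expression mainly in excitatory neurons, and no condition received a plasmid for CREST without a mutation.

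Interneurons make GABA from glutamate with the decarboxylases encoded by Gad1 and Gad2 and load it into vesicles with the transporter encoded by Slc32a1. They are a minority of hippocampal neurons and fall into classes named for what they contain, such as somatostatin cells (Sst), which contact dendrites, parvalbumin cells (Pvalb), which contact cell bodies, and cells with vasoactive intestinal peptide (Vip), many of which contact other interneurons. Lhx6 and Satb1 act in cells born in the medial ganglionic eminence, and the Dlx genes act across the forebrain GABAergic lineage.

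Levels are given as FPKM, fragment counts scaled for transcript length and for the size of the library, which allows levels to be compared between genes. Relative depth, read from single-fragment steps of FPKM among 2642 rows of low value, ranged from 0.811 to 1.24 of the median library, and absolute depth is unknown. Markers of CA1 pyramidal cells, CA2 and CA3, and dentate granule cells were detected in every condition, so the tissue was not CA1 alone. The summed choroid plexus markers ranged from 10.1 to 12801 FPKM and differed strongly between mice of 1 condition. A further 3 libraries stood apart. VEH-T3 mouse 1, Y397F-T10 mouse 1 and VEH-T10 mouse 1 had the lowest summed astrocyte and microglia markers of all 30 libraries, at 489.6, 505.7 and 534.7 FPKM. In these libraries many interneuron genes were high: 14 of 33 tested members had the highest value of their condition in all 3 of them, or 42.4%, against 8.94% of rows with a symbol of their own. The counts against home cage are therefore given with and without these 3 libraries.

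All 4 genes taken as defining markers, Gad1, Gad2, Sst and Pvalb, were present in all 30 libraries. Averaged over the 30 mice, Cck (666 FPKM) and Sst (490 FPKM) were the most abundant members, followed by Npy (105 FPKM) and Gad1 (86.7 FPKM). Cck encodes cholecystokinin, which pyramidal cells also express, so its level does not measure interneurons alone. Slc32a1 (34.3 FPKM), Pvalb (29.9 FPKM), Cnr1 (29.7 FPKM, the cannabinoid receptor of cholecystokinin cells) and Gad2 (24.2 FPKM) followed. The transcription factors were lower, from 0.236 FPKM for Nkx2-1 to 10.6 FPKM for Satb1. A mean of at least 1 FPKM was required for testing, and 33 of the 36 passed. The other 3 were Nkx2-1, Nxph2 (0.324 FPKM) and Sp8 (0.531 FPKM). Sp8, a factor of cells from the caudal ganglionic eminence, had a median of 0.84 FPKM in VEH-HC mice and 0.385 to 0.51 FPKM in the trained conditions, untested.

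Gad1 and Slc32a1, of GABA synthesis and release, had lower medians in every trained condition than in the home cage. Gad1 ranged over 86.2 to 114 FPKM (median 97.8) among VEH-HC mice, 70.8 to 98.9 FPKM (median 79) among VEH-T10 mice, 72.5 to 105 FPKM (median 81.5) among Y397F-T10 mice, 73.3 to 103 FPKM (median 78.2) among VEH-T3 mice, and 76.7 to 94.8 FPKM (median 84.1) among Y397D-T3 mice. The trained medians lay below the home cage range, and the highest trained values overlapped it. Slc32a1 spanned 36.4 to 49.6 FPKM (median 39.5) among VEH-HC mice, 27.9 to 36.7 FPKM (median 30.7) among VEH-T10 mice, 27.3 to 42.1 FPKM (median 30.6) among Y397F-T10 mice, 23.1 to 42.3 FPKM (median 30) among VEH-T3 mice, and 26.7 to 38.4 FPKM (median 37.1) among Y397D-T3 mice. Gad2 had a median of 26 FPKM in the home cage, 21.5 for VEH-T10, 24.1 for Y397F-T10, 23.2 for VEH-T3 and 24.3 for Y397D-T3, within a range of 19.4 to 31.9 FPKM over all mice. The summed FPKM of Gad1, Gad2 and Slc32a1 was 168 ± 18.3 (SD, n = 6) in the home cage, 134 ± 14.8 for VEH-T10, 141 ± 20.3 for Y397F-T10, 139 ± 20.9 for VEH-T3 and 143 ± 13.3 for Y397D-T3. In bulk tissue, fewer interneurons and less RNA per interneuron cannot be told apart.

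None of these 3 genes passed the adjusted threshold of 0.05 in any comparison. Differences are on the log2(FPKM + 1) scale. For Gad1 they were -0.30 (SE 0.0894, adjusted p = 0.093) for VEH-T10, -0.25 (adjusted p = 0.159) for Y397F-T10, -0.26 (adjusted p = 0.0784) for VEH-T3 and -0.22 (adjusted p = 0.12) for Y397D-T3, each against the same VEH-HC mice. For Slc32a1 they were -0.41 (SE 0.128, adjusted p = 0.108), -0.35, -0.38 (adjusted p = 0.0731) and -0.27 in the same order. Gad2 differed by -0.23, -0.15, -0.19 and -0.18. Without the 3 libraries low in glial markers, Gad1 passed in all 4 comparisons and Slc32a1 in all but Y397D-T3. These libraries are trained mice in which Gad1 was the highest of its condition, so leaving them out lowers the trained means. No VEH-HC or Y397D-T3 library was left out. The Gad1 call in Y397D-T3 therefore arose only through the variance shared by the libraries and the adjustment.

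**Figure D1:**
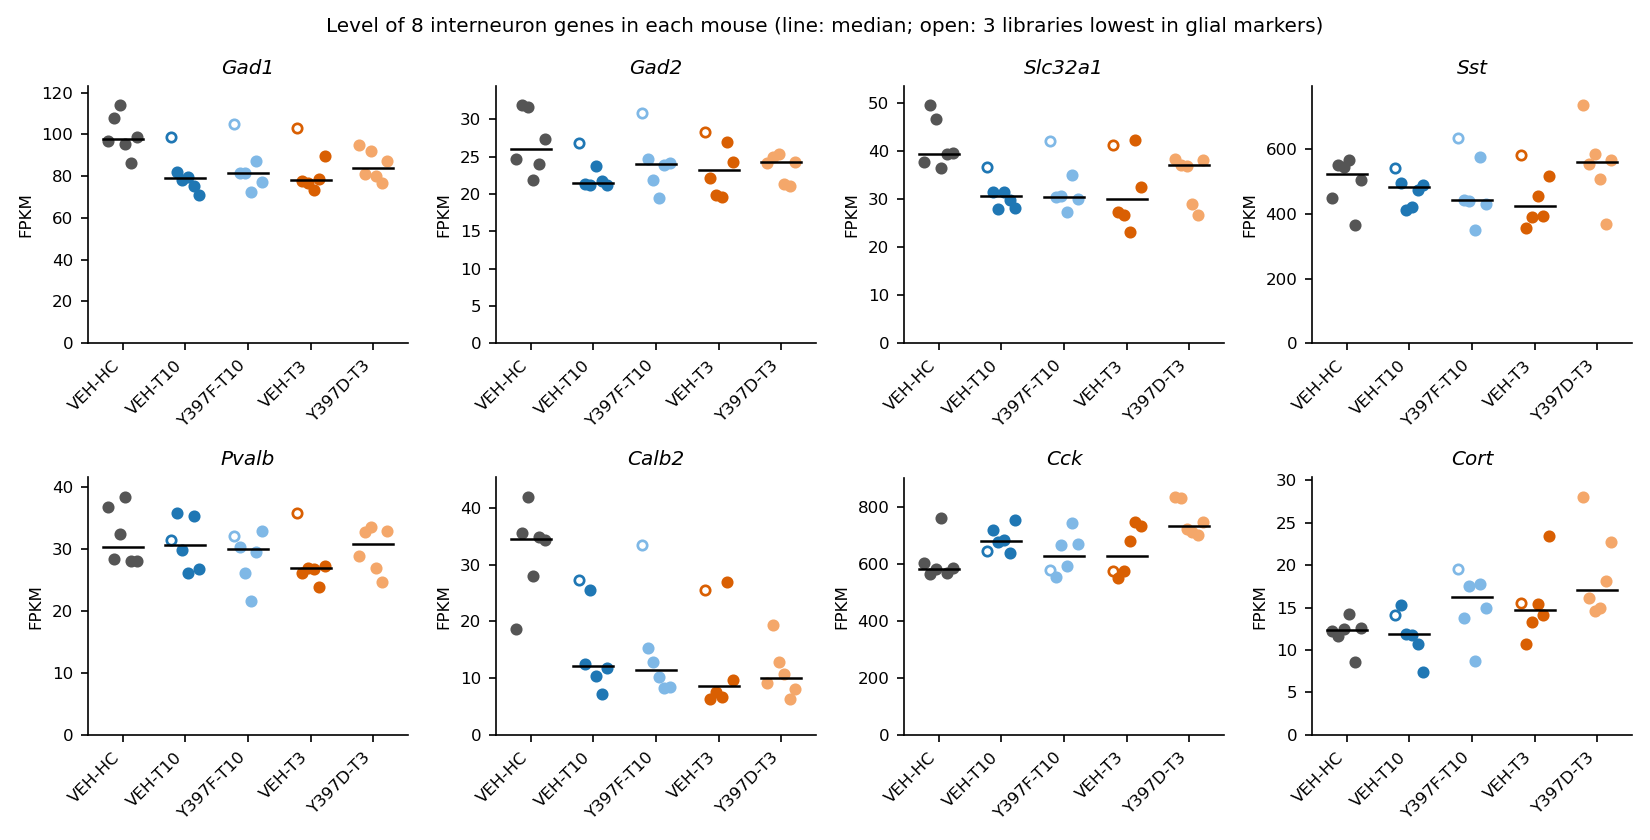
FPKM (vertical axes, from 0) of 8 interneuron genes in each mouse of the 5 conditions. Each point is 1 mouse, lines are medians of 6, and open points are the 3 libraries lowest in glial markers; Calb2 medians lie at 8.59 to 12.1 FPKM in trained mice against 34.6 FPKM in VEH-HC, while Sst and Pvalb overlap throughout.

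The class markers Sst and Pvalb overlapped between trained and home cage mice. Sst ranged over 364 to 566 FPKM (median 525) among VEH-HC mice, 411 to 540 FPKM (median 481) among VEH-T10 mice, 349 to 635 FPKM (median 441) among Y397F-T10 mice, 355 to 583 FPKM (median 423) among VEH-T3 mice, and 370 to 736 FPKM (median 559) among Y397D-T3 mice. Pvalb had medians of 30.4, 30.6, 29.9, 26.9 and 30.9 FPKM in the same order, within 21.7 to 38.5 FPKM over all mice. Their differences from VEH-HC lay between -0.15 and 0.14 for Sst and between -0.20 and -0.05 for Pvalb, and neither passed the test in any of the 7 comparisons.

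Calb2 had the largest difference among the 33 tested members in each comparison with VEH-HC. It encodes calretinin, a calcium-binding protein of interneurons that contact other interneurons, which mossy cells of the dentate hilus and neurons of the thalamus also contain. Calb2 lies on chromosome 8 at 110137502 to 110168210 of GRCm38. It spanned 18.7 to 42 FPKM (median 34.6) among VEH-HC mice, 7.25 to 27.2 FPKM (median 12.1) among VEH-T10 mice, 8.33 to 33.4 FPKM (median 11.5) among Y397F-T10 mice, 6.28 to 26.9 FPKM (median 8.59) among VEH-T3 mice, and 6.23 to 19.3 FPKM (median 9.93) among Y397D-T3 mice. All 24 trained mice lay below the home cage median, and each trained condition still overlapped the lowest home cage mouse. Calb2 fell by 1.37 (log2, SE 0.366, adjusted p = 0.0299) in VEH-T3 and by 1.50 (SE 0.366, adjusted p = 0.0138) in Y397D-T3. The differences of -1.09 in VEH-T10 (adjusted p = 0.134) and -1.21 in Y397F-T10 (adjusted p = 0.091) did not pass. The Y397D-T3 call held when any of its 12 libraries was left out (adjusted p from 0.0116 to 0.0425). The VEH-T3 call held in 4 of 12 cases and was lost without VEH-HC mouse 2, 3, 4 or 5 or VEH-T3 mouse 2, 3, 4 or 6 (adjusted p from 0.053 to 0.0966, log2 differences from -1.41 to -1.22).

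Markers of some neighbouring tissues were also lower in trained mice, where 59.6% to 63.7% of all tested rows were lower. All 7 thalamus and habenula markers were lower than in VEH-HC in 3 of the comparisons and 6 of 7 in VEH-T3. Their summed level ranged from 30.7 to 52.2 FPKM in the home cage, 22.9 to 35.3 for VEH-T10, 20.4 to 42.6 for Y397F-T10, 26.4 to 65.9 for VEH-T3 and 23.2 to 40.7 for Y397D-T3. Slc17a6, the vesicular glutamate transporter of thalamus, fell by 1.08 (adjusted p = 0.031) in VEH-T10, by 1.12 in Y397F-T10 and by 0.95 in Y397D-T3. Of the 6 deep cortex markers, 4 were tested, and their list summed to 36.4 to 46.8 FPKM in the home cage, 24.3 to 34.6 for VEH-T10, 26.7 to 43.8 for Y397F-T10, 24.5 to 51.3 for VEH-T3 and 28 to 40.4 for Y397D-T3. Of the 8 striatal markers, 4 were tested, all lower in all 4 comparisons, with medians of 76.2 FPKM in VEH-HC and 43.3 to 54.4 FPKM in trained conditions. All 6 choroid plexus markers were lower as well, with median sums of 3147 FPKM in VEH-HC and 55.7 to 1954 FPKM in trained conditions. Of 6 CA1 pyramidal markers, 4 were lower in VEH-T10 and 3 in each other trained condition. Fewer markers of CA2 and CA3 and of dentate granule cells were lower. Of 6 CA2 and CA3 markers, 1 was lower in VEH-T10, VEH-T3 and Y397F-T10 each, and 0 in Y397D-T3. Of 6 dentate granule markers, 3 were lower in VEH-T10, 2 in VEH-T3, 1 in Y397F-T10 and 0 in Y397D-T3. The dentate granule sum had a median of 120 FPKM in VEH-HC and 130 to 156 FPKM in trained conditions. None of these lists had a marker at 0 in all libraries.

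Across the 30 mice, Calb2 was related to the deep cortex sum (Pearson r = 0.584, adjusted p = 0.0162; Spearman rho = 0.619, adjusted p = 0.0176; permutation tests). It was related inversely to the dentate granule sum (r = -0.564, adjusted p = 0.0185; rho = -0.579, adjusted p = 0.0218; permutation tests). Without the 2 mice farthest from the median sum, r was 0.524 and -0.61, and after condition means were subtracted it was 0.413 and -0.63. Its r with the thalamus and habenula sum was 0.197 (adjusted p = 0.44, permutation test) and -0.0867 within conditions, with the striatal sum 0.209 and 0.0131, and with the choroid plexus sum 0.20 and -0.0877. These were among 42 relations of Calb2, Cck and Cort to 14 marker lists, with 100000 two-sided permutations each. The permutations ran over all 30 mice regardless of condition, so their p values also take in differences between conditions. The genes were chosen because they were called between conditions. No p was computed for r within conditions. None of the 42 relations was recomputed without the 3 libraries low in glial markers. Those libraries had the highest deep cortex sums of their conditions, 51.3 FPKM in VEH-T3, 43.8 in Y397F-T10 and 34.6 in VEH-T10. Their dentate granule sums were 81.1, 66.6 and 98.4 FPKM, and their Calb2 values 25.5, 33.4 and 27.2 FPKM. VEH-T3 mouse 5, at a Calb2 of 26.9 FPKM, had the lowest deep cortex sum of its condition, 24.5 FPKM. The part of dissection in the Calb2 difference was not tested beyond these values.

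**Figure D2:**
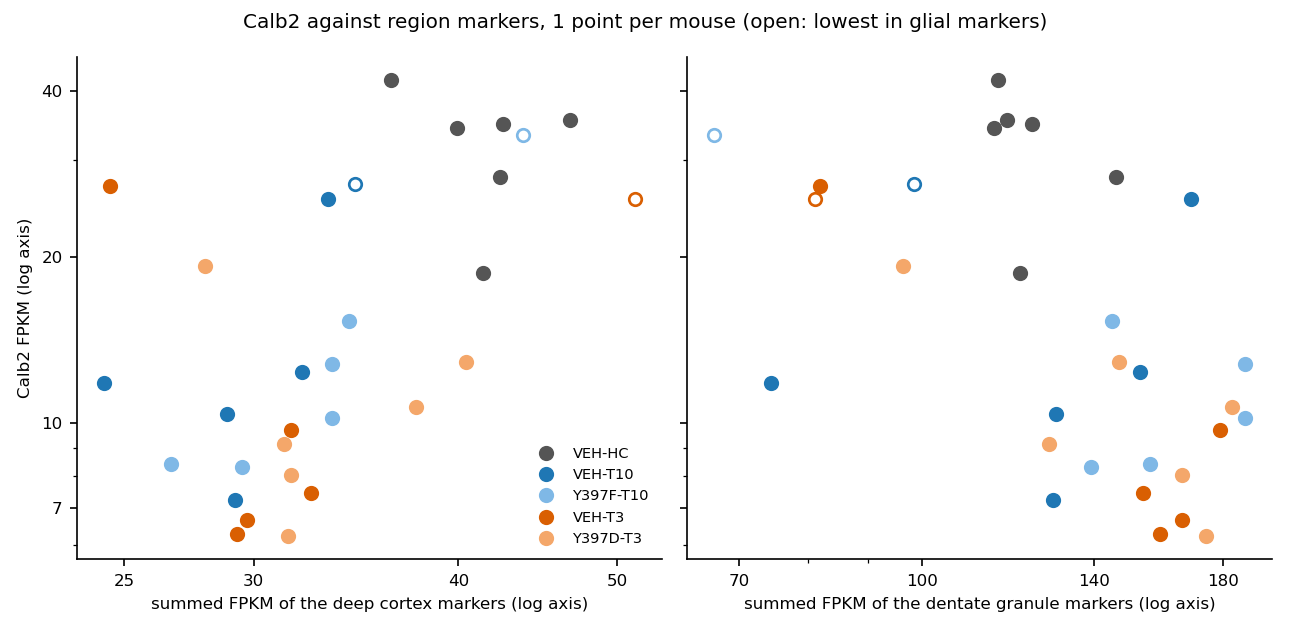
Calb2 FPKM (vertical, log axis) against the summed FPKM of deep cortex markers (left, log axis) and dentate granule markers (right, log axis), 1 point per mouse coloured by condition, with the 3 libraries lowest in glial markers open. High Calb2 goes with high deep cortex sums (r = 0.584) and low dentate granule sums (r = -0.564), with VEH-HC mice at 18.7 to 42 FPKM.

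Among the neuropeptide genes, Cck and Cort rose in Y397D-T3 mice. Cck ranged over 563 to 761 FPKM (median 583) among VEH-HC mice, 639 to 752 FPKM (median 680) among VEH-T10 mice, 553 to 744 FPKM (median 629) among Y397F-T10 mice, 551 to 746 FPKM (median 627) among VEH-T3 mice, and 702 to 836 FPKM (median 734) among Y397D-T3 mice. All 6 Y397D-T3 mice exceeded the home cage median, and VEH-HC mouse 4 alone overlapped them. The Cck difference was 0.32 (SE 0.0855, adjusted p = 0.0235). Cort encodes cortistatin, a peptide related to somatostatin that shares its receptors. It spanned 8.57 to 14.3 FPKM (median 12.4) among VEH-HC mice, 7.4 to 15.3 FPKM (median 11.8) among VEH-T10 mice, 8.65 to 19.6 FPKM (median 16.2) among Y397F-T10 mice, 10.7 to 23.4 FPKM (median 14.7) among VEH-T3 mice, and 14.6 to 28.1 FPKM (median 17.1) among Y397D-T3 mice. Every Y397D-T3 mouse lay above every VEH-HC mouse, by a small gap, and the difference was 0.61 (SE 0.186, adjusted p = 0.0448).

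The Cck call was lost without VEH-HC mouse 2 (adjusted p = 0.0572), VEH-HC mouse 5 (adjusted p = 0.0575) or Y397D-T3 mouse 2 (adjusted p = 0.0614). The Cort call held in 3 of 12 such cases and was lost without VEH-HC mouse 1, 2, 3, 5 or 6 or Y397D-T3 mouse 1, 2, 5 or 6 (adjusted p from 0.0586 to 0.113, differences from 0.49 to 0.65). Against VEH-T3, the condition with the same training, Cck differed by 0.24 (SE 0.0855, adjusted p = 0.524) and Cort by 0.29 (SE 0.186, adjusted p = 0.715). Against VEH-HC, Cort differed by 0.32 in VEH-T3 (adjusted p = 0.336), 0.31 in Y397F-T10 (adjusted p = 0.411) and -0.03 in VEH-T10. Cck was also related to the CA1 pyramidal sum across the 30 mice (r = 0.584, adjusted p = 0.0162; rho = 0.527, adjusted p = 0.0482; permutation tests; r = 0.486 without the 2 farthest mice and 0.481 within conditions). That sum had a median of 312 FPKM in VEH-HC and 342 FPKM in Y397D-T3. Cck was related inversely to the deep cortex sum (r = -0.50, adjusted p = 0.0447; rho = -0.485, adjusted p = 0.0558; permutation tests; r = -0.408 without the 2 farthest mice and -0.489 within conditions). Cort was related to the CA1 pyramidal sum in r alone (r = 0.508, adjusted p = 0.0447; rho = 0.40, adjusted p = 0.117; permutation tests), and r was 0.273 without the 2 farthest mice and 0.489 within conditions. Its relation to the upper cortex sum likewise passed in r alone (r = 0.488, adjusted p = 0.0447; rho = 0.412, adjusted p = 0.107; permutation tests), with an r of 0.34 without the 2 farthest mice and 0.489 within conditions. The part of tissue composition in the Cck and Cort differences was not tested beyond these values.

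CREST binds the coactivator CBP, a partner of CREB, which binds the cAMP response element TGACGTCA or its shorter form TGACG. The bases before the start sites of Cck and Cort are shown, from RefSeq for GRCm38.p6, with TGACG or its reverse complement CGTCA in capitals. Both stretches hold 120 bases, read 5′ to 3′ on the minus strand and ending at the base before the start site, chr9:121495695-121495814 for Cck and chr4:149126764-149126883 for Cort.
Cck: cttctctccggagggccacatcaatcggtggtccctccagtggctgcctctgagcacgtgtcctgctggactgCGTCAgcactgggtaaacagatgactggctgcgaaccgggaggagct
Cort: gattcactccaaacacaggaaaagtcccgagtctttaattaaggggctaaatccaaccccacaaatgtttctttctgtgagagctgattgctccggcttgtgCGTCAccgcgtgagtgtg
The match begins 47 bases before the Cck start and 18 bases before the Cort start. RefSeq promoters were matched for 28 of the 36 members, 45 in number, and 9 of the 45 (20%) held TGACG on either strand within 250 bases upstream, against 17.8% of all 32851 promoters. Sst alone among these 28 held the whole TGACGTCA, 48 bases before its start, which 1.55% of all promoters did. The 9 genes with the shorter motif were Cck, Cort, Dlx2, Gad2, Nos1, Sox6, Sst, Tac1 and Vip. Of them, Dlx2, Gad2, Sox6, Tac1 and Vip were lower than in VEH-HC in every trained condition. The share of members with the shorter motif was near that of all promoters, and a match is a description of letters, not of binding. Sst did not pass the test in any comparison.

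The other neuropeptides did not pass the test in any comparison. Npy, of somatostatin and neurogliaform cells, had medians of 96.5 FPKM in VEH-HC and 104 to 115 FPKM in trained conditions, with differences from 0.12 to 0.28. Vip had medians of 8.69 FPKM in the home cage, 7.95 for VEH-T10, 7.29 for Y397F-T10, 5.73 for VEH-T3 and 5.94 for Y397D-T3, with a difference of -0.44 (adjusted p = 0.133) in VEH-T3. Tac2, the neurokinin B precursor, ranged over 4.56 to 7.14 FPKM (median 5.67) among VEH-HC mice, 3.09 to 6.88 FPKM (median 4.3) among VEH-T10 mice, 3.22 to 5.51 FPKM (median 3.83) among Y397F-T10 mice, 2.16 to 8.76 FPKM (median 4.34) among VEH-T3 mice, and 2.46 to 5.45 FPKM (median 3.69) among Y397D-T3 mice, where it differed from VEH-HC by -0.52 (adjusted p = 0.126). Penk, the enkephalin precursor that dentate granule cells also express, differed by 0.07 to 0.25, and Tac1 and Pnoc by -0.24 to -0.03.

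All 4 tested Dlx genes were lower than in VEH-HC in all 4 trained conditions, by differences of -0.46 to -0.24, and none passed the adjusted threshold. Dlx1 spanned 3.32 to 5.26 FPKM (median 3.73) among VEH-HC mice, 2.24 to 3.13 FPKM (median 2.65) among VEH-T10 mice, 2.04 to 4.24 FPKM (median 2.72) among Y397F-T10 mice, 2.42 to 5.6 FPKM (median 2.81) among VEH-T3 mice, and 2.21 to 3.35 FPKM (median 2.94) among Y397D-T3 mice. Every VEH-T10 mouse lay below every VEH-HC mouse, and the difference of -0.46 (SE 0.135) had an adjusted p of 0.0915. Dlx6 spanned 1.75 to 3.28 FPKM (median 2.77) among VEH-HC mice, 1.18 to 2.39 FPKM (median 1.77) among VEH-T10 mice, 0.975 to 2.63 FPKM (median 1.79) among Y397F-T10 mice, 1.05 to 2.92 FPKM (median 2.11) among VEH-T3 mice, and 1.15 to 2.39 FPKM (median 2.01) among Y397D-T3 mice, and the groups overlapped. Satb1 differed by -0.36 to -0.27 and Lhx6 by -0.28 to -0.12. Maf and Sox6 were nearer to 0, between -0.16 and 0.02. Over the 9 tested transcription factors, 7 were lower in VEH-T10 and 8 in each other trained condition, with medians of -0.26 to -0.24 in all 4 comparisons.

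The secreted and adhesion genes Reln, Nxph1, Ndnf and Elfn1 were lower in all 4 trained conditions, by -0.31 to -0.02, and none passed. Kit, the receptor of stem cell factor, spanned 15.7 to 20.1 FPKM (median 17.8) among VEH-HC mice, 12.2 to 25.3 FPKM (median 14.3) among VEH-T10 mice, 11.6 to 30.9 FPKM (median 13) among Y397F-T10 mice, 7.99 to 25.8 FPKM (median 10.7) among VEH-T3 mice, and 9.83 to 21.5 FPKM (median 11.7) among Y397D-T3 mice. In 3 of these conditions the highest Kit value was that of the library low in glial markers. Kit differed by -0.56 (adjusted p = 0.154) in VEH-T3. Erbb4, Cnr1 and Nos1 differed by -0.20 to 0.08. Adarb2, a gene of caudal ganglionic eminence cells, differed by 0.23 (adjusted p = 0.076) in Y397D-T3 and is named after its value was seen.

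**Figure D3:**
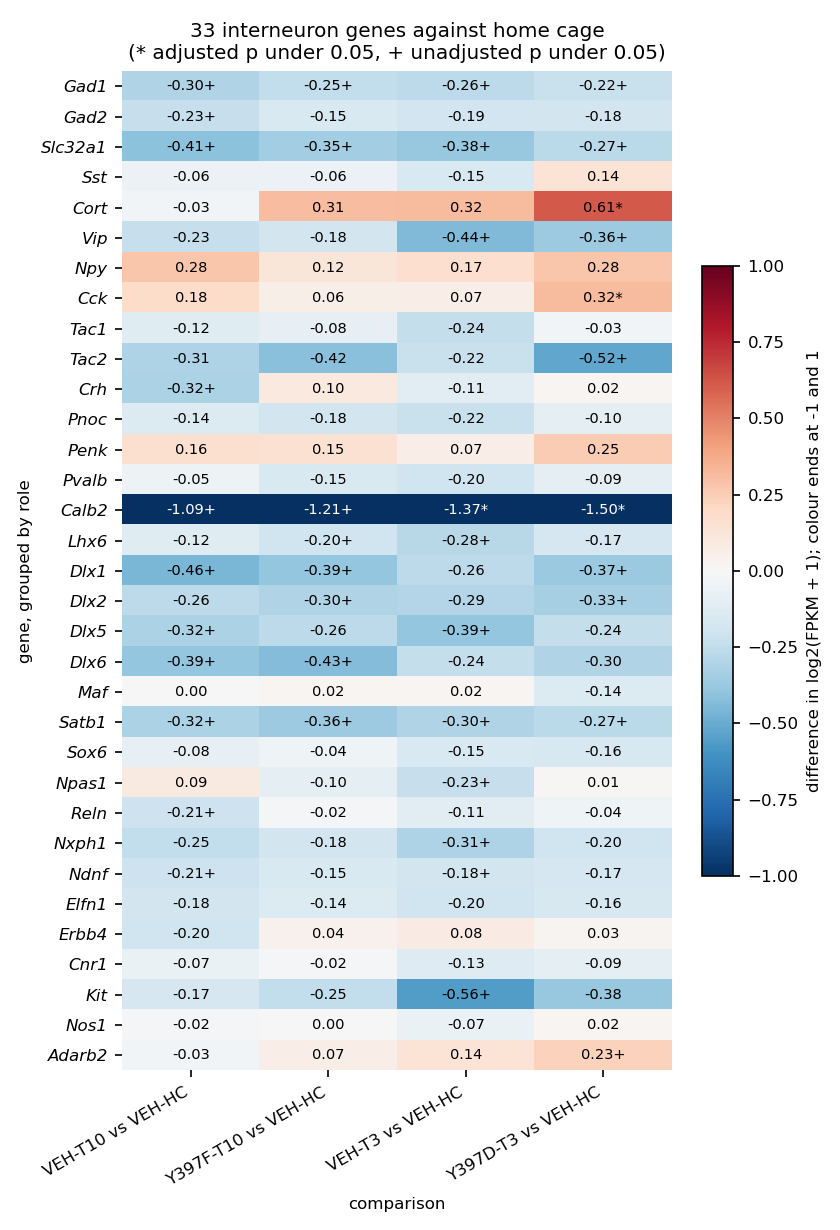
Differences in log2(FPKM + 1) of the 33 tested interneuron genes (rows, by role) in the 4 trained conditions against VEH-HC (columns), with red for higher and blue for lower. Asterisks mark adjusted p under 0.05, which are Calb2 in VEH-T3 and Calb2, Cck and Cort in Y397D-T3, and plus signs mark unadjusted p under 0.05.

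Counted over the list, 0 of 33 members were called in VEH-T10 against VEH-HC, where 0.819% of 13184 rows were, by limma with Benjamini-Hochberg adjustment. In VEH-T3, 1 of 33 was called against 5.17% of rows. Y397F-T10 had 0 of 33 against 1.13%. Y397D-T3 had 3 of 33, or 9.09%, against 7.07%. These shares were near or below those of all rows. All 4 comparisons use the same VEH-HC mice, so their values are not independent of each other.

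At an unadjusted p under 0.05, 11 of 33 members (33.3%) were lower and 0 higher in VEH-T10, where 10.3% of rows were lower and 4.57% higher. In VEH-T3, 11 of 33 were lower against 13.8% of rows, and 0 were higher against 7.79%. In Y397F-T10, 8 of 33 (24.2%) were lower against 11.4% of rows, and 0 were higher against 5.5%. In Y397D-T3, 8 were lower against 14.6% of rows and 3 were higher against 10.3%. Lower members were 28 of 33 for VEH-T10, 24 for Y397F-T10, 26 for VEH-T3 and 23 for Y397D-T3, with medians of -0.18, -0.15, -0.20 and -0.16. Over all tested rows 59.7%, 63.7%, 61% and 59.6% were lower, with medians of -0.025, -0.041, -0.035 and -0.034. With each library centred on its median, lower members were 25, 22, 26 and 22 of 33, against 47.6%, 54.9%, 54.6% and 49.3% of all rows. At an unadjusted p under 0.05 the centred counts were 6 lower and 2 higher in VEH-T10 (5.73% and 7.13% of rows), 6 lower and 0 higher in Y397F-T10 (6.47% and 7.54%), 7 lower and 0 higher in VEH-T3 (9.25% and 9.7%), and 3 lower and 4 higher in Y397D-T3 (9.47% and 14.3%).

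Without overlap between the mice of the compared conditions, Dlx1 alone was lower in VEH-T10, where 1.64% of rows were. No member was so in VEH-T3 (1.31% of rows), Y397F-T10 (1.24%) or Y397D-T3 (3.02%). Cort alone was higher in Y397D-T3, where 2.5% of rows were.

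Without the 3 libraries low in glial markers, a choice made after the data were seen, more members were called. In VEH-T10 they were 5, Calb2, Dlx1, Gad1, Satb1 and Slc32a1, against 5.35% of 13217 rows. In VEH-T3 they were 11 of 33, against 12.4% of rows: Calb2, Dlx5, Elfn1, Gad1, Kit, Lhx6, Npas1, Nxph1, Satb1, Slc32a1 and Vip. In Y397F-T10 they were 6, the VEH-T10 genes and Lhx6, against 6.18% of rows. In Y397D-T3 they were 6, Adarb2, Calb2, Cck, Cort, Gad1 and Satb1, against 11.2% of rows. No VEH-HC or Y397D-T3 library was left out, so the count in Y397D-T3 changed only through the shared variance and the adjustment. The 3 omitted libraries are trained mice in which many members were high, so their omission lowers the trained levels of those members. At an unadjusted p under 0.05, lower members became 13 in VEH-T10 (13.3% of rows), 17 in VEH-T3 (15.4%), 14 in Y397F-T10 (13.6%) and 11 in Y397D-T3 (17.7%), and higher members became 2, 1, 0 and 4 (7.14%, 10.6%, 6.98% and 11.3%). Lower by any amount were 28, 27, 26 and 23 of 33, where 56.5%, 53.2%, 58.1% and 59.6% of rows were lower. Members without overlap were 4 lower in VEH-T10 (Gad1, Slc32a1, Dlx1 and Satb1, against 4.1% of rows), 5 in VEH-T3 (Vip, Pvalb, Lhx6, Satb1 and Kit, against 4.99%), 6 in Y397F-T10 (against 4.01%) and 0 in Y397D-T3 (against 3.01%), where Cort alone was higher (2.5%). With 5 mice left in 3 conditions, a lack of overlap is also easier to reach.

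Single libraries moved the adjusted counts as well. Leaving out VEH-T3 mouse 1 alone gave 8 members in VEH-T3, against 9.75% of rows, and leaving out VEH-T3 mouse 5 gave 5, against 7.92%. Leaving out Y397F-T10 mouse 1 gave 3 in Y397F-T10, against 3.02% of rows, and leaving out VEH-T10 mouse 1 gave 1 in VEH-T10, against 1.36%.

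Within conditions, many members were high or low in the same mice. After condition means were subtracted, the median Pearson r over the 528 pairs of tested members was 0.292 across 30 mice. Gad1 had an r over 0.5 with 20 of the other members, the highest with Nxph1 (0.885), Elfn1 (0.828), Lhx6 (0.812) and Gad2 (0.809). Below 0 were Npy (-0.0368), Cck (-0.118), Adarb2 (-0.193), Sox6 (-0.255), Penk (-0.404) and Maf (-0.693). The highest pair was Cnr1 and Kit (0.911). These values share library, dissection and depth, and the 3 libraries low in glial markers are among the 30 points. No r was computed for pairs of other rows or without those 3 libraries, so the values cannot be called particular to these genes.

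**Figure D4:**
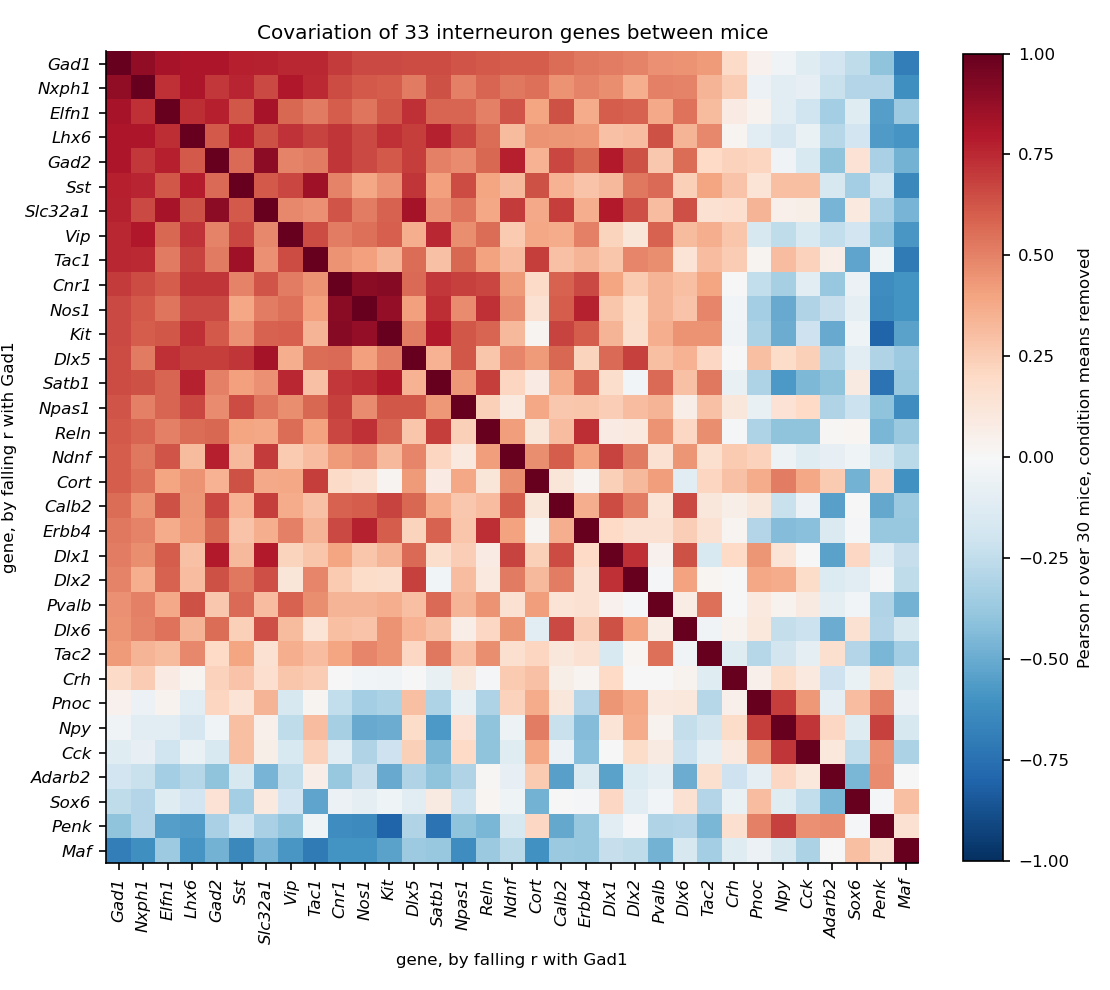
Pearson r between each pair of the 33 tested interneuron genes over 30 mice after condition means were subtracted (colour, -1 blue to 1 red), with genes on both axes in order of falling r with Gad1. The block at the upper left runs from Gad1 and Nxph1 (r = 0.885) to Dlx1 (0.515), and Maf (-0.693) stands at the other end.

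The plasmids were compared with vehicle, the reagent without DNA, under equal training. Plasmid delivery, added CREST and the mutation cannot be told apart in these comparisons. For Y397F-T10 against VEH-T10, limma called 0 of 33 members and 0% of rows, and 2 of 33 had an unadjusted p under 0.05, against 3.78% of rows. Crh encodes corticotropin-releasing hormone, which some hippocampal interneurons release. It ranged over 0.672 to 1.51 FPKM (median 1.02) among VEH-T10 mice, 1.15 to 2.14 FPKM (median 1.73) among Y397F-T10 mice, 1.29 to 1.98 FPKM (median 1.45) among VEH-HC mice, 1.08 to 1.5 FPKM (median 1.41) among VEH-T3 mice, and 1.34 to 2.06 FPKM (median 1.5) among Y397D-T3 mice. All 6 Y397F-T10 mice lay above the VEH-T10 median, and the mice overlapped. Its difference was 0.42 (95% interval 0.22 to 0.61, adjusted p = 0.996). Reln, the other, differed by 0.18. Reln, Npas1 and Adarb2 are named in these counts after their values were seen. Of the 33 members, 14 were lower, with a median of 0.04, where 53.9% of all rows were lower.

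For Y397D-T3 against VEH-T3, limma called 0 of 33 members and 0.00758% of rows, and Cck and Npas1 (0.24 each) had an unadjusted p under 0.05, against 7.87% of rows. Members were lower in 8 of 33, with a median of 0.09, where 49.1% of all rows were lower. Without the 3 libraries low in glial markers, 0 were still called, 4 of 33 were lower where 53.3% of rows were, and 7 were higher at an unadjusted p under 0.05, against 8.15% of rows. Gad1 differed by 0.04 (95% interval -0.14 to 0.22) and Slc32a1 by 0.11 (95% interval -0.15 to 0.37).

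The effects of both plasmids were also set against each other in 1 contrast, added after the data were seen. Y397F was given only with 10 min of training and Y397D only with 3 min, so mutation and training period cannot be told apart in it. No member was called, against 0.0303% of rows, and 3 of 33 had an unadjusted p under 0.05, against 9.08% of rows. Npas1, a transcription factor of caudal ganglionic eminence cells, differed by -0.20 under Y397F and 0.24 under Y397D, a difference of 0.44 (SE 0.137, adjusted p = 0.386). Mean Npas1 was 7.78 FPKM in VEH-T10 and 5.95 FPKM in VEH-T3, against 6.65 FPKM in Y397F-T10 and 7.25 FPKM in Y397D-T3. Cck followed with 0.36 (adjusted p = 0.415) and Crh with -0.29 (adjusted p = 0.526).

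**Figure D5:**
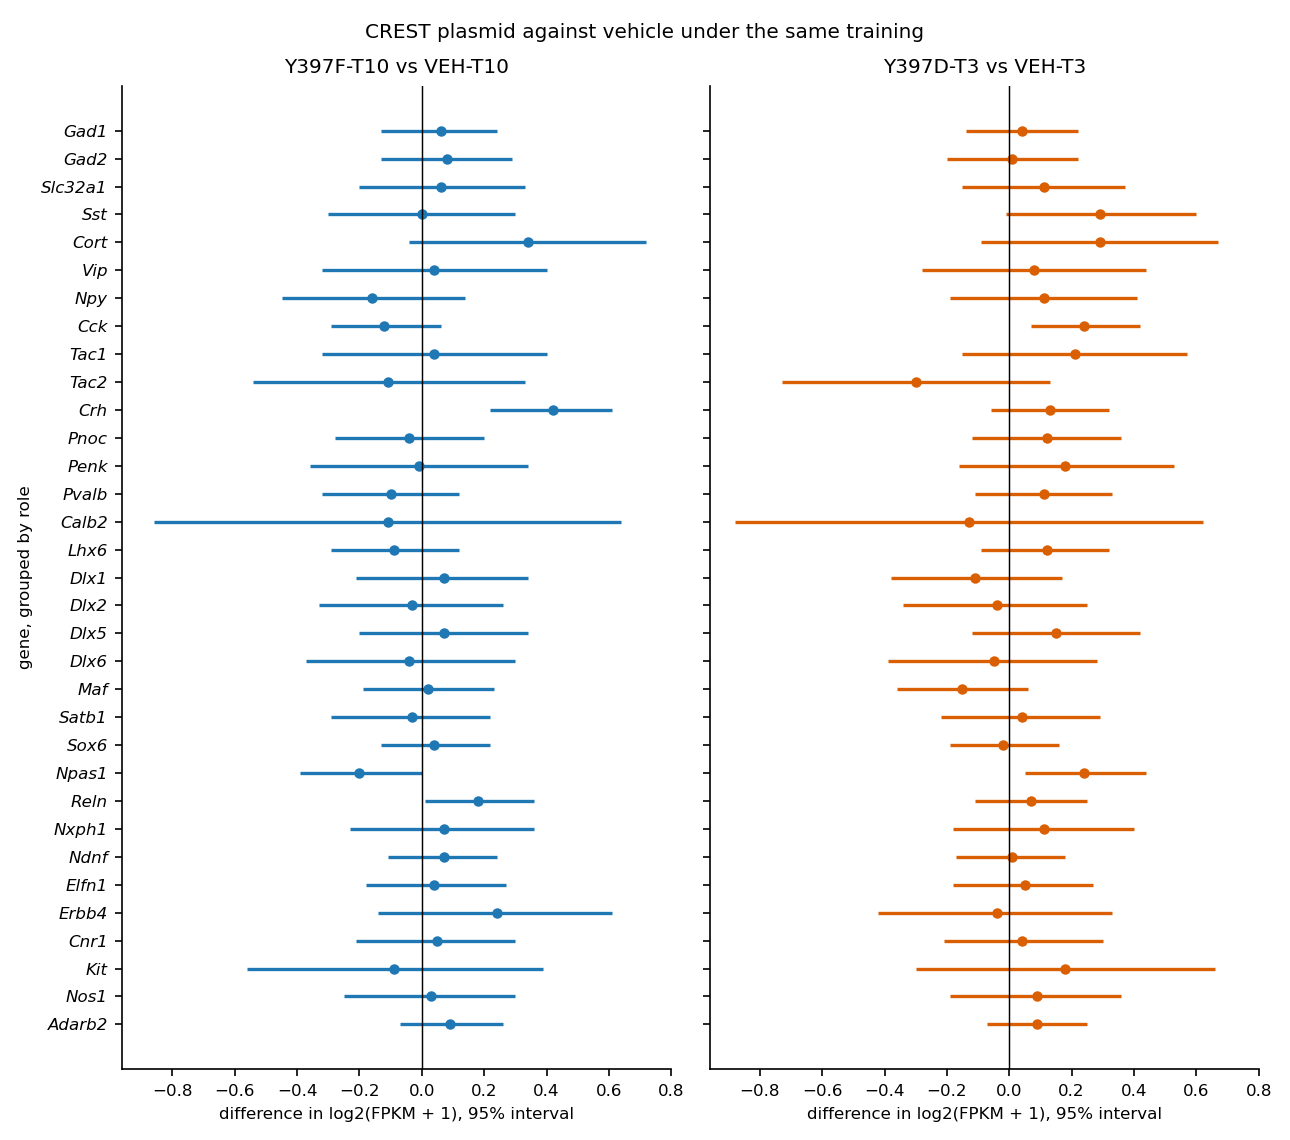
Differences in log2(FPKM + 1) with 95% intervals (horizontal lines) of the 33 tested interneuron genes for Y397F-T10 against VEH-T10 (left) and Y397D-T3 against VEH-T3 (right). Intervals above 0 are those of Crh (0.22 to 0.61) and Reln (0.01 to 0.36) on the left. On the right they are those of Cck (0.07 to 0.42) and Npas1 (0.05 to 0.44). No gene passed the adjusted threshold in either panel.

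Between the training periods, VEH-T10 against VEH-T3, limma called 0 of 33 members and 0.0455% of rows, and 3 of 33 had an unadjusted p under 0.05, against 8.15% of rows. These were Npas1 (0.32, adjusted p = 0.413), Crh (-0.20) and Adarb2 (-0.16). Without the 3 libraries low in glial markers, 4 members were higher and 1 lower at that p, against 5.11% and 6.28% of rows, and 0 were called. Calb2 differed by 0.28 (95% interval -0.47 to 1.03), an interval too wide to tell the training periods apart.

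Genes that act around interneurons were counted for the same comparisons. Of 13 genes of GABA handling, receptors and scaffold, 12 were tested. In VEH-T3, Abat, which breaks GABA down, fell by 0.25 (adjusted p = 0.0451). Of 29 receptors and signalling genes for interneuron peptides, reelin, neuregulin and cannabinoids, 22 were tested, and 4 rose in Y397D-T3: Sstr4, a receptor of somatostatin and cortistatin (0.50, adjusted p = 0.00607), the reelin adaptor Dab1 (0.29), and the endocannabinoid enzymes Dagla (0.35) and Faah (0.22). These 4 of 22 compare with 7.07% of all rows called in that comparison. Of 26 further interneuron genes, 22 were tested, and Nr2f2, a factor of caudal ganglionic eminence cells that is also made outside neurons, fell by 0.85 (adjusted p = 0.0301) and Cacna2d2 fell by 0.63 (adjusted p = 0.0321) in Y397D-T3. The other 20 genes were not called there, and none of the 22 was called in the other comparisons with VEH-HC.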

How the data were processed

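Paired reads of the 30 libraries were aligned to mm10 with TopHat2 2.1.1 and quantified with Cufflinks 2.2.1, per the labels and the submitters' processing notes. The authors deposited 1 table of FPKM, that is, fragments scaled by transcript length and library size, and 0 value columns were left unused. Libraries ran on NovaSeq and HiSeq instruments without assignment, so no batch could be modelled. Conditions follow the labels. Each library is 1 mouse.

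Rows with a mean of at least 1 FPKM over all libraries, 13184 in number, were tested as log2(FPKM + 1) with limma 3.58.1 in R 4.3.3, with 1 coefficient per condition, a variance shared by all 30 libraries, a trend on mean expression, and Benjamini-Hochberg adjustment within each of 7 comparisons at a threshold of 0.05. The pseudocount understates changes of low genes. The fit was tested on simulated data.

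The members and lists were chosen with earlier results of these data known. All 36 members are accounted for. Values per condition are given for Gad1, Gad2, Sst, Pvalb and Slc32a1, for called members, and for the 2 with the largest differences in each comparison. Alternatives were a pseudocount of 0.1, no filter (rows above 0 in at least 6 libraries), median centring, only the 12 libraries compared, the replicate number as a block, no trend, unadjusted p values and leaving out each library. Omitting 3 libraries together, the contrast between plasmid effects and the counts without overlap were added after the data were seen. Relations across mice used 100000 permutations over all libraries regardless of condition, so their smallest p is 1e-05. Gene coordinates come from GENCODE and promoters from RefSeq, both on GRCm38. The result of 1 gene of the GABA handling list is not reported here.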

Additional observations from a re-analysis of the deposited data

Results flagged for a closer look

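In 13 members and 5 conditions, 65 groups of 6 mice were screened for a mouse far from the others of its condition (by Dixon's 95% criterion on the gap to the nearest mouse over the whole range), and 5 were found, where chance flags about 1 in 20 groups. Kit was 30.9 FPKM in Y397F-T10 mouse 1, against 11.6 to 14.4 FPKM in the other mice, and 25.8 FPKM in VEH-T3 mouse 1, against 7.99 to 11.3 FPKM. Calb2 was 33.4 FPKM in Y397F-T10 mouse 1, against 8.33 to 15.3 FPKM. Pvalb was 35.8 FPKM in VEH-T3 mouse 1, against 23.9 to 27.3 FPKM. Cck was 761 FPKM in VEH-HC mouse 4, against 563 to 602 FPKM. The first 4 values belong to libraries low in glial markers.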

How the results depend on the processing

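For 48 differences with an unadjusted p under 0.05, 912 values under alternatives gave 0 reversals, 843 on the same side of the threshold, 22 that lost a call and 47 that gained one. Counts of called members moved under these settings. With the 3 libraries low in glial markers left out, they were 5 in VEH-T10, 11 in VEH-T3, 6 in Y397F-T10 and 6 in Y397D-T3 against VEH-HC. With only the 12 libraries compared, VEH-T10 had 3 (2.43% of all rows), VEH-T3 had 0 (0%) and Y397D-T3 had 7 (14%). At an unadjusted p under 0.05 they were 11, 11, 8 and 11 in VEH-T10, VEH-T3, Y397F-T10 and Y397D-T3 against VEH-HC, 2 for Y397F-T10 against VEH-T10, 2 for Y397D-T3 against VEH-T3 and 3 for VEH-T10 against VEH-T3. Leaving out 1 library gave 0 to 1 in VEH-T10, 0 to 8 in VEH-T3, 0 to 3 in Y397F-T10, 1 to 3 in Y397D-T3 and 0 in the other comparisons. With the replicate number as a block they were 1 in VEH-T10 (Gad1, with 1.23% of all rows) and 3 in VEH-T3 (Calb2, Gad1 and Lhx6, with 5.63%), and within 1.5 times elsewhere. The numbers were not taken to pair the mice, since within the 7 comparisons same-numbered deviations correlated from -0.496 to 0.521, at most 3 of 6 pairs were over 0.1, and at most 3 of 6 mice (in VEH-T10 against VEH-T3) correlated best with their own number. The 3 libraries low in glial markers are all number 1, and their deviations correlated at 0.41 to 0.84 with each other. The causes of the other moves were not tested. Without the filter, Cort in Y397D-T3 had an adjusted p of 0.0591. Absolute depth is unknown, so members near 1 FPKM carry an unknown counting error.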
